A study of Mus musculus with 8 samples.

Results

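Lipid-associated macrophage genes are a set of 10 genes (Trem2, Cd9, Lipa, Gpnmb, Spp1, Atp6v0d2, Mmp12, Acp5, Itgax and Ctsk) looked up by symbol among the 23212 gene symbols of the count tables. All 10 were found, and all 10 had enough counts to be tested. They were measured by RNA-seq in whole perigonadal fat of 8 C57BL/6 mice aged 20 weeks, 4 wild type and 4 carrying an adipocyte-specific gene knockout. Mice of both genotypes had eaten a high-fat diet, with 45% fat, for 12 weeks from the age of 8 weeks, and were matched for age and weight. There was no group on a lean diet. The promoter that drives the deletion, and whether the controls carry any part of the targeting construct, are stated nowhere in the sources used here. The deletion is directed at adipocytes, while the genes described here were listed for a macrophage state. The labels do not describe macrophages as targeted. Some of the genes, such as Cd9, are also made by other cells.

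In obese fat, macrophages gather around dying adipocytes, take up the lipid that these release and break it down in their lysosomes. Macrophages in this state are known for the lipid-sensing receptor TREM2, for lysosomal enzymes and for proteins shared with the osteoclast, the bone-resorbing cell of the same lineage. Several of the genes are known targets of the MiT family of transcription factors, which bind E-box and M-box letters, of the myeloid factor PU.1 and of AP-1.

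The stretches of 250 bases upstream of the start site of 5 of the genes are printed because the levels of Gpnmb, Mmp12 and Itgax had the same 3 highest mice in the same order, while those of Trem2 and Acp5 did not. The sequences are from RefSeq, build GRCm38.p6, which shares its coordinates with the mm10 build of the count annotation; a RefSeq start was matched for 9 of the 10 genes, all but Atp6v0d2. Capitals mark matches on either strand to 4 motifs: the E-box CACGTG, the M-box TCATGTG, the PU.1 core GAGGAA and the AP-1 letters TGANTCA. None of the marked matches overlap.
Gpnmb, chr6:49036268-49036517, plus strand: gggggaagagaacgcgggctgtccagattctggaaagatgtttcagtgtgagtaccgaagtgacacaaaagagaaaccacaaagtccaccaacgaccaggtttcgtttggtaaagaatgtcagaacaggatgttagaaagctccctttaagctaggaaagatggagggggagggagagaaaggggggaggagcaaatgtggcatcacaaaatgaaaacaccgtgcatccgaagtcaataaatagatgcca
Mmp12, chr9:7347124-7347373, plus strand: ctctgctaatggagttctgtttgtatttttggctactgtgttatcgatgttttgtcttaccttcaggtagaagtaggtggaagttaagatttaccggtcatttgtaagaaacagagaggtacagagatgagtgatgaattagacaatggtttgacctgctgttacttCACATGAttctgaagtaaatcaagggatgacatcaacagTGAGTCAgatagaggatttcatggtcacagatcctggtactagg
Itgax, chr7:128129300-128129549, plus strand: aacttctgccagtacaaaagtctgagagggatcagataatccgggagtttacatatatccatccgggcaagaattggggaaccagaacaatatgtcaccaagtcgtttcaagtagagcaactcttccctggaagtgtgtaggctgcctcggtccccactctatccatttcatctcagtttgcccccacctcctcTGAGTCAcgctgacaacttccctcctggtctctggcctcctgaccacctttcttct
Trem2, chr17:48346151-48346400, plus strand: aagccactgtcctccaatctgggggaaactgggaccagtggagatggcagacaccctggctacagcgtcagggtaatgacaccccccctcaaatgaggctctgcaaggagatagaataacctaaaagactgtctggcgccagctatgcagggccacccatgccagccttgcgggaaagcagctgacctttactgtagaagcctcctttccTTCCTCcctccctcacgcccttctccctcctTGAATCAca
Acp5, chr9:22135747-22135996, minus strand: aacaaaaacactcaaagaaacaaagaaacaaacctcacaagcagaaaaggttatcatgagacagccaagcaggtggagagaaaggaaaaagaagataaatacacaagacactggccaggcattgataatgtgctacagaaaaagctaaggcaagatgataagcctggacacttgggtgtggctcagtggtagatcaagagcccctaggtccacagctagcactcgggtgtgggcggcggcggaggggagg
The AP-1 letters were found upstream of 3 of the 9 genes (Trem2, Mmp12 and Itgax), against 6.75% of 32851 upstream stretches of the same length. The match in Mmp12 began 44 bases before its start site, that in Itgax 56 bases and that in Trem2 9 bases before. These letters accept any middle base, which was G in Mmp12 and Itgax and A in Trem2. The PU.1 core was found upstream of 4 of the 9 genes (Trem2, Lipa, Spp1 and Ctsk), against 23.25% of all stretches. Mmp12 alone among the 9 held the M-box, 83 bases before its start site, against 3.25% of all stretches, and none of the 9 held the E-box, which 6.02% of all stretches hold. Gpnmb and Acp5 held none of the 4 motifs in this window. RefSeq lists 3 starts for Acp5 and 2 each for Mmp12 and Spp1. For these genes only the start nearest that of the authors' annotation was searched.

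The 8 libraries held 46444435 to 51431956 counts each, and 14493 genes had enough counts to be tested. Values are given as CPM, counts scaled to the library size, and as mean ± SD over 4 mice. Gene positions are those of the deposited annotation in mm10. Fold changes are from edgeR's quasi-likelihood test with Benjamini-Hochberg adjustment over all tested genes. Wild-type mouse 3 and knockout mouse 2 were the highest pair for 5 of 10 markers of ciliated and epididymal epithelium (Foxj1, Epcam, Cuzd1, Cdh1 and Pax8): Foxj1 was at 7.97 and 26.1 CPM in them and at 0.287 CPM or less in the other 6. The other 5 markers did not follow that pair: among wild-type mice Krt8, Krt18, Krt19 and Lcn5 were highest in mouse 2, and Crisp1 in mouse 4 at 3.46 CPM against 0.234 CPM in mouse 3. None of the 10 genes shares exonic bases with another gene in the authors' annotation, and each has a single locus.

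Each of the 10 genes was above 0 in log2 fold change, knockout against wild type, as were 53.1% of all tested genes, and the median of the 10 was 0.83 against 0.01 for all tested genes. None of the 10 passed an adjusted p of 0.05, where 0.0138% of tested genes did (2 of 14493), and none had an unadjusted p under 0.05, where 2.23% of tested genes did. DESeq2 likewise called none of the 10 at an adjusted p of 0.05 (0.134% of its genes called), and gave 2 of them, Gpnmb and Mmp12, an unadjusted p under 0.05 (2.9% of genes). Limma voom called none (0% of genes). Genes of the set with an unadjusted edgeR p under 0.05 numbered 5 without wild-type mouse 3 (2.96% of tested genes) and 5 without knockout mouse 2 (3.97%). They numbered 6 without knockout mouse 3 (3.78%) and 6 without wild-type mouse 3 and knockout mouse 2 together (5.58%). None of them passed the adjusted threshold. The count was 0 in 12 of the 17 alternative analyses, those without knockout mouse 1 or 4 among them. In none of the 10 were the 4 knockout mice all on one side of the 4 wild-type mice, which 1.44% of tested genes showed. In whole tissue, fewer cells of a type and less RNA per cell cannot be told apart.

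**Figure D1:**
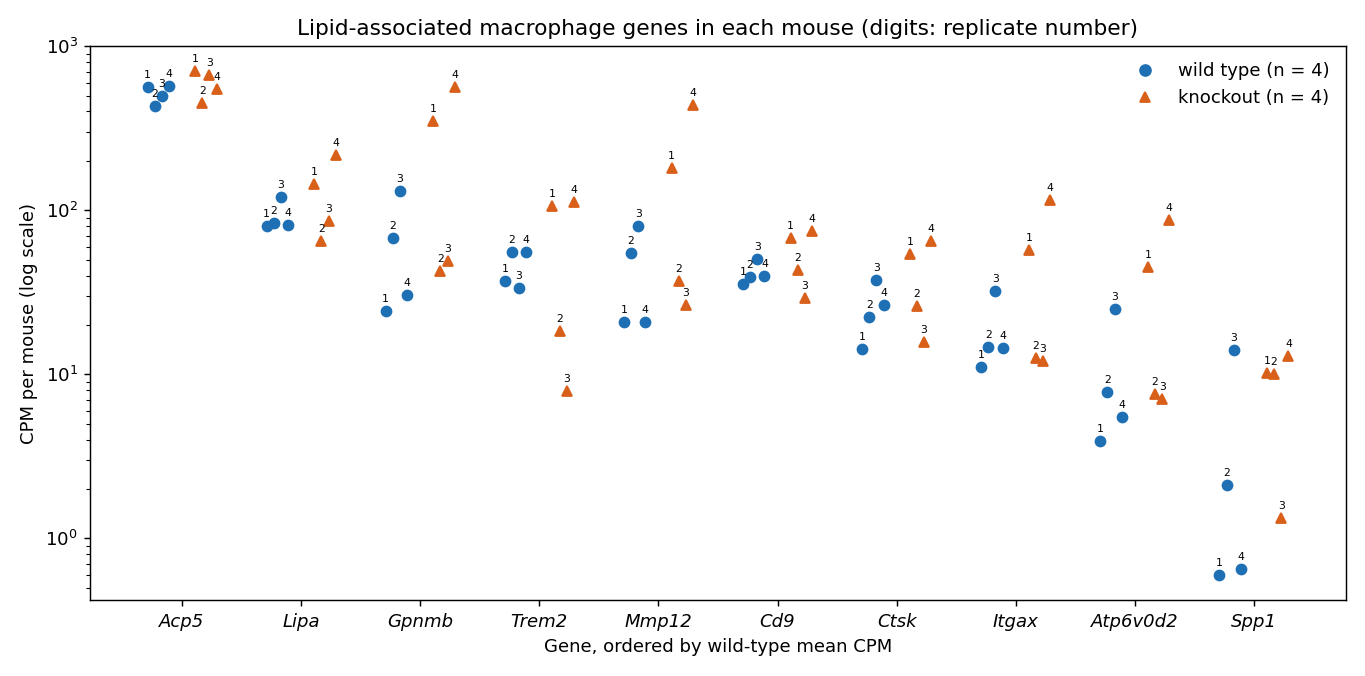
CPM of each gene in each of the 8 mice on a log scale, wild type as circles and knockout as triangles, with the replicate number beside each point. Knockout mice 1 and 4 stand above the other mice in 8 of the 10 genes, while knockout mice 2 and 3 lie among or below the wild-type mice in most genes.

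The surface receptors of the set differed in how they varied. Trem2 (chr17:48346401-48352273, plus strand), the lipid-sensing receptor that gives this macrophage state its best-known marker, was at 36.9, 55.7, 33.6 and 55.8 CPM in wild-type mice 1 to 4 and at 106, 18.4, 7.87 and 112 CPM in knockout mice 1 to 4. The knockout mice therefore lay on both sides of the wild-type mice, 2 above all of them and 2 below all of them. Wild-type mice spanned 1.66-fold and knockout mice 14.2-fold. The log2 fold change was 0.42 (SE 0.72, adjusted p = 1.00), with a 95% interval from -1.22 to 2.07, and it was -0.04 without knockout mouse 4.

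Itgax (chr7:128129568-128150657, plus strand), which encodes CD11c, an integrin chain of macrophages and dendritic cells, was at 11.0, 14.6, 32.4 and 14.6 CPM in wild-type mice 1 to 4 and at 57.5, 12.5, 12.02 and 115 CPM in knockout mice 1 to 4. Knockout mice 1 and 4 were above every wild-type mouse, and the other pair of knockout mice lay within the wild-type range. In the edgeR fit the log2 fold change was 1.44 (SE 0.73, 95% interval -0.22 to 3.09, adjusted p = 1.00), and 0.58 without knockout mouse 4. Its neighbours on chromosome 7, Itgam and Itgad, encode related integrin chains. Itgam averaged 29.4 ± 10.2 CPM among wild-type mice and 47.3 ± 31.0 CPM among knockout mice, and Itgad, which shares 9.54% of its exonic bases with other genes, averaged 1.37 ± 1.48 and 3.80 ± 3.99 CPM. Reads from stretches alike in these chains are less certain.

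Gpnmb (chr6:49036518-49058182, plus strand), a transmembrane glycoprotein made in lipid-loaded macrophages and osteoclasts, had the largest log2 fold change of the set in the edgeR fit with all mice, close to that of Mmp12. In limma voom Spp1 was higher, at 1.79 against 1.49 for Gpnmb, as it was without wild-type mouse 3. Gpnmb was at 24.2, 67.5, 130 and 30.5 CPM in wild-type mice 1 to 4 and at 352, 42.8, 49.3 and 563 CPM in knockout mice 1 to 4. Levels spanned 23.3-fold over the 8 mice, with knockout mice 1 and 4 highest and knockout mice 2 and 3 inside the wild-type range. Knockout against wild type gave a log2 fold change of 1.99 (SE 0.90, 95% interval -0.05 to 4.04, adjusted p = 1.00, unadjusted p = 0.0549). Without knockout mouse 4 it was 1.22, and without wild-type mouse 3 it was 2.63.

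Cd9 (chr6:125460266-125494755, minus strand), a tetraspanin found on these macrophages and on many other cells, was at 35.8, 39.4, 50.2 and 39.7 CPM in wild-type mice 1 to 4 and at 67.8, 43.1, 29.1 and 74.3 CPM in knockout mice 1 to 4. Its spread was small beside that of Gpnmb, 2.56-fold over all mice, with the same knockout mice highest and knockout mouse 3 below every wild-type mouse. Its fitted log2 fold change was 0.38 (SE 0.27, 95% interval -0.25 to 1.00, adjusted p = 1.00), 0.17 without knockout mouse 4 and 0.58 without knockout mouse 3.

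Of the lysosomal genes, Lipa (chr19:34492316-34527474, minus strand) encodes the acid lipase that splits cholesteryl esters and triglycerides taken up by the cell. It was at 79.7, 83.5, 120 and 80.8 CPM in wild-type mice 1 to 4 and at 145, 65.0, 85.5 and 219 CPM in knockout mice 1 to 4. Knockout mice 1 and 4 were above every wild-type mouse and knockout mouse 2 was below every one. The log2 fold change was 0.50 (SE 0.35, 95% interval -0.30 to 1.30, adjusted p = 1.00), and it was 0.10 without knockout mouse 4.

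Atp6v0d2 (chr4:19876838-19922566, minus strand) encodes the myeloid and osteoclast isoform of the d subunit of the vacuolar proton pump, which acidifies the lysosome. It was at 3.94, 7.76, 25.1 and 5.47 CPM in wild-type mice 1 to 4 and at 44.9, 7.57, 7.05 and 87.7 CPM in knockout mice 1 to 4. The order of the mice was nearly that of Gpnmb, with knockout mice 4 and 1 first and wild-type mouse 3 next. In the edgeR fit the log2 fold change was 1.80 (SE 0.91, 95% interval -0.26 to 3.86, adjusted p = 1.00), and 0.90 without knockout mouse 4. Atp6v0d1, the isoform made in most cells, averaged 189 ± 20.2 CPM among wild-type mice and 191 ± 12.2 CPM among knockout mice.

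Ctsk (chr3:95499286-95509362, plus strand) encodes cathepsin K, a collagen-cleaving protease best known from osteoclasts. It was at 14.2, 22.2, 37.7 and 26.6 CPM in wild-type mice 1 to 4 and at 54.4, 26.0, 15.8 and 64.8 CPM in knockout mice 1 to 4. Again knockout mice 1 and 4 were the only ones above all wild-type mice. Knockout against wild type gave a log2 fold change of 0.68 (SE 0.45, 95% interval -0.35 to 1.70, adjusted p = 1.00), and 0.34 without knockout mouse 4.

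Acp5 (chr9:22126727-22135746, minus strand), the tartrate-resistant acid phosphatase used to stain osteoclasts, behaved unlike the rest of the set. It was at 561, 430, 494 and 570 CPM in wild-type mice 1 to 4 and at 705, 451, 671 and 548 CPM in knockout mice 1 to 4. The groups overlapped, the spread over all mice was 1.64-fold, and knockout mouse 4, the highest in 8 of the other 9 genes, had 4 mice above it for Acp5. Its fitted log2 fold change was 0.21 (SE 0.17, 95% interval -0.17 to 0.59, adjusted p = 1.00), 0.12 without knockout mouse 1 and 0.32 without knockout mouse 2. Per kilobase of exon Acp5 was also far the most abundant, at 343 ± 60.3 CPM per kb over the 8 mice, against 48.9 ± 35.0 for Trem2, the next.

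The remaining levels per kilobase of exon, over the 8 mice, were 41.4 ± 51.7 CPM per kb for Gpnmb, 39.8 ± 13.3 for Cd9, 37.0 ± 17.2 for Lipa, 29.8 ± 40.1 for Mmp12 and 22.1 ± 12.4 for Ctsk. Atp6v0d2 was at 9.46 ± 11.8, Itgax at 8.37 ± 9.06 and Spp1 at 3.92 ± 3.54 CPM per kb. From Trem2 to Ctsk, and among the last 3, neighbours in this order differed by less than the larger of their SDs over mice.

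Of the secreted proteins, Mmp12 (chr9:7347374-7360461, plus strand) encodes macrophage elastase. It was at 20.8, 54.7, 80.0 and 20.8 CPM in wild-type mice 1 to 4 and at 181, 37.0, 26.3 and 440 CPM in knockout mice 1 to 4. Levels spanned 16.7-fold among knockout mice and 3.84-fold among wild-type mice, and knockout mice 2 and 3 lay within the wild-type range. The log2 fold change was 1.96 (SE 0.89, 95% interval -0.07 to 3.98, adjusted p = 1.00, unadjusted p = 0.0563), and 0.88 without knockout mouse 4.

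Spp1 (chr5:104435111-104441053, plus strand) encodes osteopontin, a secreted matrix protein and cytokine that binds integrins and CD44. It was at 0.598, 2.12, 14.1 and 0.649 CPM in wild-type mice 1 to 4 and at 10.2, 10.1, 1.33 and 12.95 CPM in knockout mice 1 to 4. It was the only gene of the set whose highest mouse was wild type. Wild-type mouse 3 and knockout mouse 2, the libraries highest in Foxj1, were at 14.1 and 10.1 CPM. The 10 epithelial markers summed to 26.4 to 170 CPM in wild type and 18.1 to 201 CPM in knockout. The sum was 95.4 and 201 CPM in that pair and 170 CPM in wild-type mouse 2, where Spp1 was at 2.12 CPM. Wild-type mouse 2 was also highest in the summed mesothelial genes, at 1172 CPM, and that list also holds Krt19. The mean log2 CPM of the tested epithelial markers was 1.15 in wild-type mouse 2, against 2.95 and 4.17 in that pair. The part of these genes in the Spp1 level was not tested. In the edgeR fit the log2 fold change was 0.98 (SE 1.04, 95% interval -1.38 to 3.35, adjusted p = 1.00) with all mice, 0.61 without wild-type mouse 4, 2.94 without wild-type mouse 3 (adjusted p = 1.00) and 2.85 without that pair (adjusted p = 0.870).

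**Figure D2:**
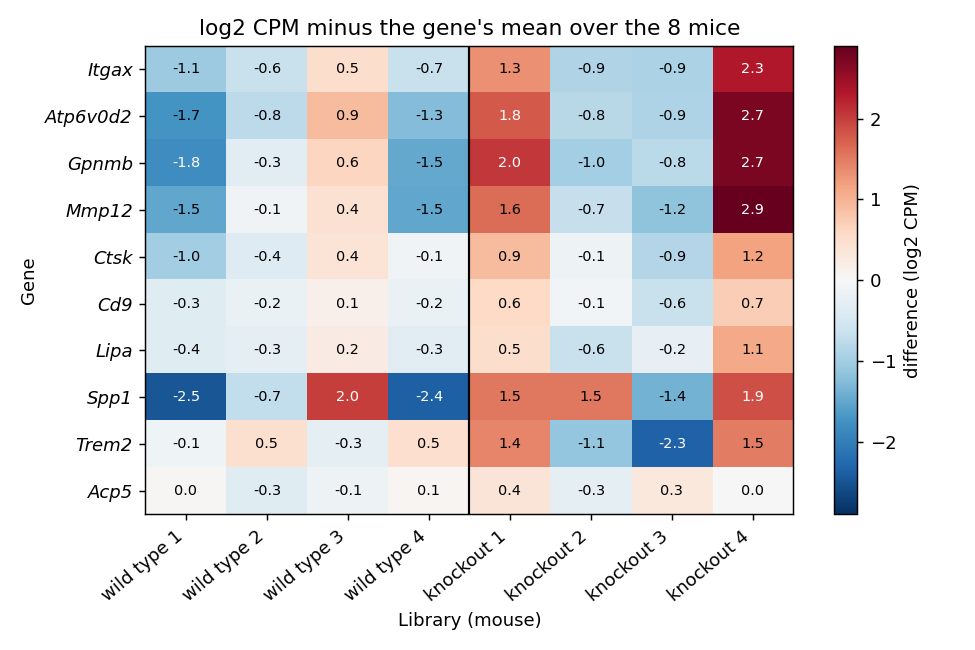
log2 CPM of each gene in each mouse minus the mean of that gene over the 8 mice, with wild-type mice left of the line and knockout mice right of it. The columns of knockout mice 1 and 4 are red in 9 of the 10 genes, that of wild-type mouse 3 is pale red in 7 of those and strong red for Spp1, and the row of Acp5 is pale throughout.

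Among the 7 genes other than Acp5, Spp1 and Trem2, knockout mouse 4, knockout mouse 1 and wild-type mouse 3 were the 3 highest in that order, while the order below them differed from gene to gene. Knockout mouse 4 was the highest of the 8 for 8 genes, and knockout mice 4 and 1 were the 2 highest for 8 genes. Wild-type mouse 1 was the lowest for 5 genes. Over the 8 libraries, the 7 genes Cd9, Lipa, Gpnmb, Atp6v0d2, Mmp12, Itgax and Ctsk had pairwise Pearson r of 0.84 to 0.99 in log2 CPM, as a description of libraries that share tissue makeup and diet. The r of Acp5 with each other gene was -0.16 to 0.32, that of Trem2 0.02 to 0.79 and that of Spp1 -0.16 to 0.80. The 7 genes were grouped after these values were seen.

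The spread between mice was wider in knockout than in wild type for 9 of the 10 genes, with Spp1 the exception, against 58.4% of all tested genes. The median SD of log2 CPM was 1.57 in knockout and 0.63 in wild type over the set, and 0.25 and 0.22 over all tested genes. This was not tested.

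To set the genes beside the amount of macrophage RNA, a macrophage index was taken per library as the mean log2 CPM of 10 general macrophage genes outside the set (Csf1r, Emr1, Fcgr1, Mertk, C1qa, C1qb, C1qc, Aif1, Cd14 and Mpeg1). It was 4.22, 4.39, 5.87 and 5.52 in wild-type mice 1 to 4 and 5.49, 4.90, 5.04 and 6.36 in knockout mice 1 to 4. The means of 4.998 ± 0.82 in wild type and 5.45 ± 0.66 in knockout differed by 0.45, within the spread between mice (n = 4 each, two-sided exact permutation test over 70 arrangements, p = 0.429, the smallest possible being 0.0286). Knockout mouse 4 was highest in the index as it was in most of the set, and wild-type mouse 1 was lowest. Of the 10 index genes 9 lay above 0, as did 53.1% of all tested genes, and none passed. Mertk, the receptor for dying cells of resident macrophages, lay below 0 at -0.32 (SE 0.21, adjusted p = 1.00).

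The index did not follow the set in every mouse. The 2 mice of different genotype with the closest index were knockout mouse 1 at 5.49 and wild-type mouse 4 at 5.52. At that near-equal index, knockout mouse 1 held 11.5 times the Gpnmb level of wild-type mouse 4, 15.7 times the Spp1 level, 8.70 times the Mmp12 level, 8.22 times the Atp6v0d2 level and 3.95 times the Itgax level. For the other 5 genes that ratio was 1.24 to 2.05. These are single libraries, and the ratio has no replicate check. The index genes themselves went both ways in this pair. Mpeg1 was at 162 CPM in knockout mouse 1 and 73.1 CPM in wild-type mouse 4, and Mertk at 22.5 and 39.1 CPM. Mice of 1 genotype could differ in a like way: wild-type mouse 3, with an index of 5.87, held 4.27 times the Gpnmb level and 4.58 times the Atp6v0d2 level of wild-type mouse 4. Trem2 ran the other way there, at 0.602 times the level of wild-type mouse 4.

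**Figure D3:**
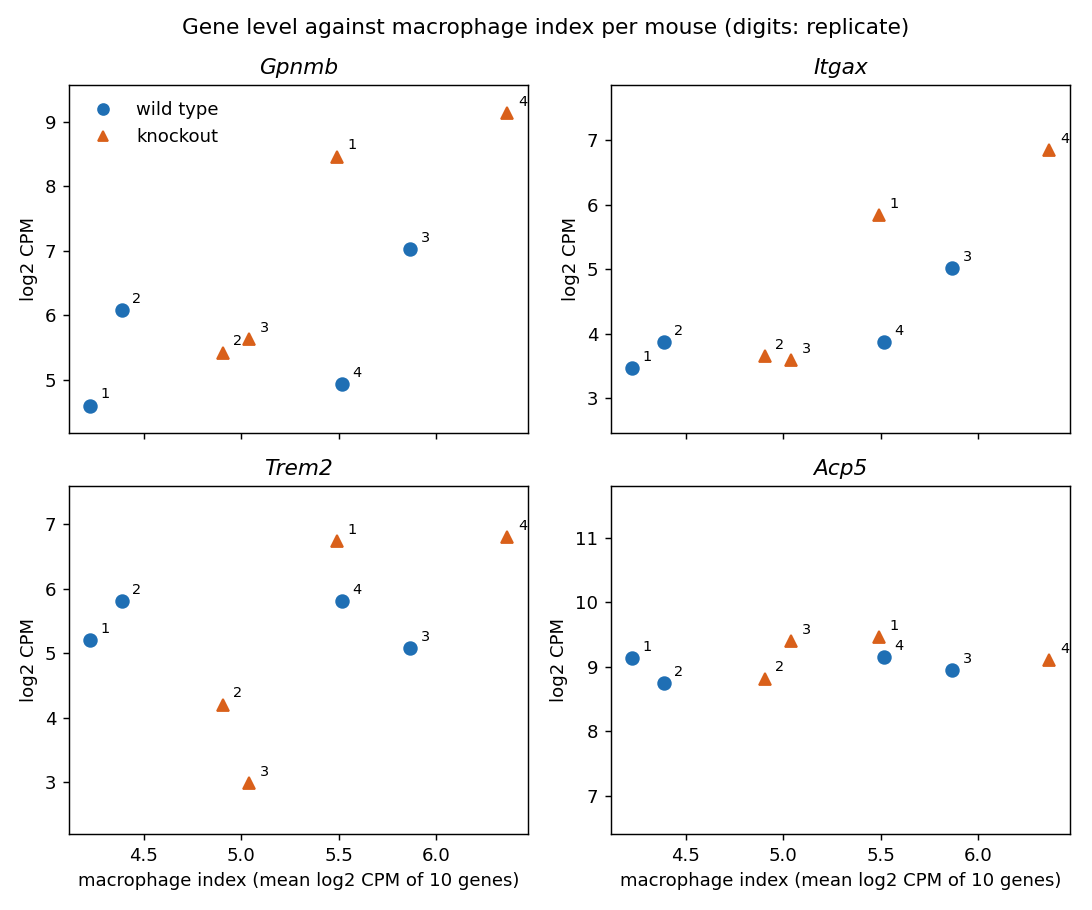
log2 CPM of Gpnmb, Itgax, Trem2 and Acp5 against the macrophage index of each mouse, with vertical axes of equal length and the replicate number beside each point. Knockout mouse 1 and wild-type mouse 4 lie at almost the same index, 5.49 and 5.52, and differ in Gpnmb and Itgax, while Acp5 is nearly level along the index.

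With the index as a covariate in the edgeR fit of all genes, 9 of the 10 genes were above 0, as were 57.1% of all tested genes, none passed an adjusted p of 0.05, where 0% of tested genes did, and the median of the 10 was 0.34 against 0.03 for all tested genes. None of the 10 had an unadjusted p under 0.05 there, where 2.51% of tested genes did. The log2 fold change of Gpnmb was 0.91 (SE 0.86, adjusted p = 1.00), that of Spp1 0.91 (SE 0.88), that of Mmp12 0.72 (SE 0.91) and that of Atp6v0d2 0.70 (SE 0.68). Itgax was at 0.43 (SE 0.57), Ctsk at 0.24 (SE 0.32), Acp5 at 0.20 (SE 0.18), Cd9 at 0.15 (SE 0.24) and Lipa at 0.11 (SE 0.28). Trem2 was at -0.23 (SE 0.90), the only value below 0. The index may itself depend on genotype, so these values describe the mice at a common index and do not divide the difference into parts. Over the libraries left out in turn, Gpnmb ranged from 0.27 to 1.45, Spp1 from 0.08 to 2.68, Atp6v0d2 from 0.16 to 1.10, Ctsk from 0.001 to 0.52 and Acp5 from 0.10 to 0.34. Without wild-type mouse 4 the count above 0 was 6, and Itgax, Mmp12, Lipa and Trem2 were below 0.

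**Figure D4:**
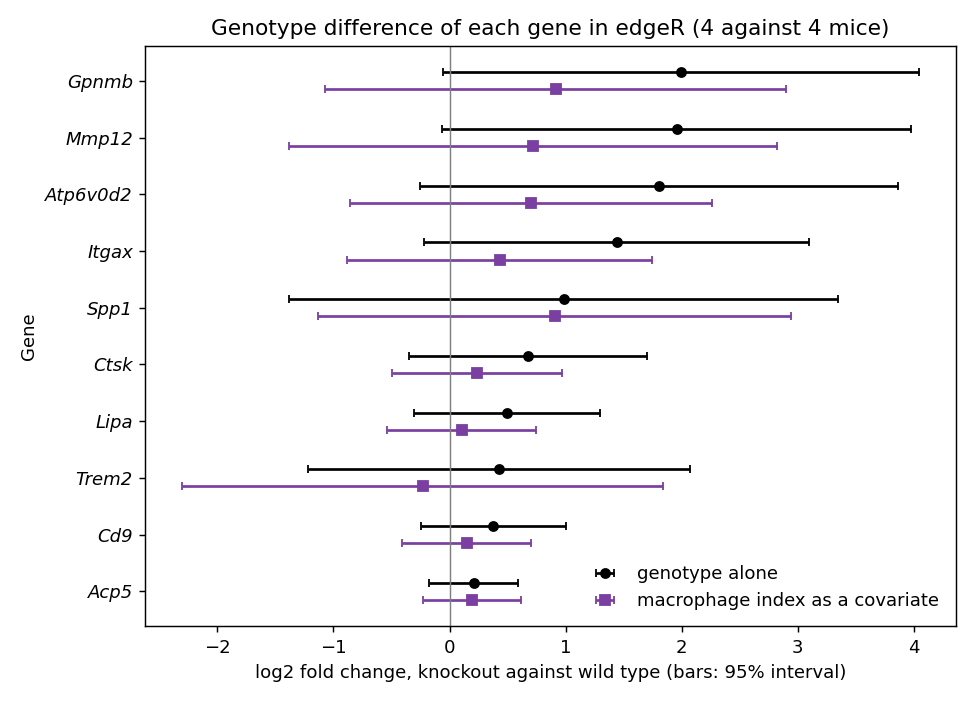
log2 fold change of each gene, knockout against wild type, with its 95% interval, from the fit with genotype alone (circles) and with the macrophage index as a covariate (squares). All 20 intervals include 0, and that of Gpnmb from genotype alone starts closest to 0, at -0.05.

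Genes that work with the set were taken from fixed lists, and in each of them no gene passed over all genes tested in either direction. The counts above 0 given for these lists stand beside 53.1% of all tested genes above 0. Several list medians moved with single mice: without knockout mouse 4 that of the TREM2 partners was 0.02, that of the osteopontin and CD11c partners 0.15, that of the other lipid-associated genes 0.11, that of the proton pump subunits -0.001 and that of the general macrophage genes -0.07. Without knockout mouse 1 that of protease substrates and inhibitors was -0.17 and that of lipid handling 0.02, and without wild-type mouse 1 that of the osteoclast genes was 0.01. Of the partners and ligands of TREM2, 8 of 10 were above 0 with a median of 0.31. Tyrobp, the adaptor through which TREM2 signals, was at 17.5, 26.5, 63.4 and 47.5 CPM in wild-type mice 1 to 4 and at 70.8, 31.5, 32.1 and 135 CPM in knockout mice 1 to 4. Its order of mice differed from that of Trem2: wild-type mouse 3, the lowest wild-type mouse for Trem2, was the highest wild-type mouse for Tyrobp. Apoe encodes an apolipoprotein that TREM2 binds and that adipocytes also make. It averaged 5514 ± 847 CPM among wild-type mice and 4444 ± 1194 CPM among knockout mice (log2 fold change -0.31, SE 0.22).

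Integrins and receptors that bind osteopontin or pair with CD11c were above 0 in 9 of 10 cases, with a median of 0.50. Itgb2, the beta chain that pairs with CD11c, averaged 37.6 ± 16.6 CPM among wild-type mice and 74.0 ± 61.2 CPM among knockout mice. Cd44, a receptor for osteopontin and hyaluronan, was at 33.4 ± 9.66 and 58.0 ± 35.8 CPM. The mean of each was higher in knockout by less than the SD of the knockout mice.

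Genes of the osteoclast programme that macrophages can share were above 0 in 9 of 10 tested cases, with a median of 0.15. Ostm1 was the gene below 0, at -0.15 (SE 0.11). Dcstamp, needed for the fusion of osteoclasts and giant cells, was at 0.516, 0.686, 1.11 and 1.09 CPM in wild-type mice 1 to 4 and at 2.55, 0.453, 0.526 and 7.43 CPM in knockout mice 1 to 4. Its knockout mice 1 and 4 stood above the wild-type mice and its knockout mice 2 and 3 stood near the lowest of them, and the log2 fold change was 1.69 (SE 0.85, adjusted p = 1.00), and 0.46 without knockout mouse 4. Calcr, the calcitonin receptor of mature osteoclasts, had 0 counts in every library. Atp6v0c, a proton pump subunit that every cell uses, was also listed at 0 in every library. It shares 97.0% of its exonic bases with the annotated Atp6v0c-ps2, while Calcr shares 0% with any gene. The part of that overlap in the 0 of Atp6v0c was not tested. A 0 in these counts is therefore not by itself a bound on a gene's level.

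Of 13 lysosomal hydrolases and membrane proteins 10 were above 0, with a median of 0.19, and Cd63, a tetraspanin of the lysosomal membrane, averaged 96.9 ± 11.9 CPM among wild-type mice and 126 ± 24.8 CPM among knockout mice (log2 fold change 0.37, SE 0.16, adjusted p = 1.00, unadjusted p = 0.0400). Ctss, a lysosomal protease of antigen-presenting cells, was at 99.8 ± 58.8 and 228 ± 217 CPM. Of 13 tested proton pump subunits other than Atp6v0d2, 9 were above 0 with a median of 0.04. Tcirg1, the a3 subunit of lysosomes and osteoclasts, was at 36.9 ± 14.1 and 59.8 ± 31.8 CPM. The MiT family and its regulators came out above 0 in 7 of 8 cases, median 0.17: Tfe3 was at 51.5 ± 2.80 and 55.7 ± 3.81 CPM and Tfeb at 18.3 ± 3.71 and 21.5 ± 4.05 CPM.

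Of 12 genes of macrophage lipid handling 9 were above 0, with a median of 0.06, and 3 were below 0, the lowest at -0.13. Soat1 and Msr1 are named for having the smallest unadjusted p of that list. Soat1, which esterifies cholesterol for storage, averaged 14.9 ± 5.42 CPM among wild-type mice and 27.6 ± 20.4 CPM among knockout mice, and the scavenger receptor Msr1 averaged 7.19 ± 3.26 and 11.9 ± 8.00 CPM. Other genes of the lipid-associated state were above 0 in 9 of 12 cases, with a median of 0.37. Among these, Cd84 was at 12.5 ± 6.89 and 28.9 ± 26.6 CPM and Capg, an actin-capping protein of macrophages, at 57.0 ± 23.6 and 104 ± 74.1 CPM. Tetraspanins other than Cd9 were above 0 in 6 of 8 cases with a median of 0.08, and Cd53, made in white blood cells, was at 26.4 ± 10.6 and 40.2 ± 25.5 CPM. Substrates and inhibitors of the proteases were above 0 in 5 of 8 cases with a median of 0.09; Timp1, an inhibitor of metalloproteinases, was at 6.49 ± 2.38 and 10.6 ± 8.30 CPM.

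The genes most like the set were sought among 12899 other genes at a mean of 1 CPM or more by their mean Pearson r with the 10 genes over the 8 libraries. The highest were Soat1 (0.84), 5430435G22Rik (0.84), Egr2 (0.84), S100a6 (0.84), Rgs1 (0.84), Adam8 (0.84), Kcnj14 (0.83) and Cd84 (0.83). Rgs1, a regulator of G-protein signalling in white blood cells, was at 1.11, 2.20, 5.42 and 1.70 CPM in wild-type mice 1 to 4 and at 11.2, 1.83, 2.08 and 23.9 CPM in knockout mice 1 to 4. Its order at the top was that of Gpnmb, with knockout mice 4 and 1 first and wild-type mouse 3 next. These genes were chosen by their r with the set in the same libraries, so a shared order follows from the choice.

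Markers of other cell types were read beside the set, and their counts above 0 also stand beside 53.1% of all tested genes. Of 8 dendritic cell genes 3 were above 0, and their summed level was 43.1 to 126 CPM in wild type and 59.9 to 112 CPM in knockout. The sum was highest in wild-type mouse 3 at 126 CPM and knockout mouse 4 at 112 CPM, the third highest and the highest mouse for Itgax. It was 61.7 CPM in knockout mouse 1, the next highest for Itgax. In wild-type mouse 4 the sum was 95.6 CPM, with Itgax at 14.6 CPM. Clec10a and Irf8 made up most of the sum. They were at 64.5 and 28.2 CPM in wild-type mouse 3 and 53.8 and 35.9 CPM in knockout mouse 4. Cd209a was at 16.7 CPM in wild-type mouse 3, 9.29 CPM in knockout mouse 4 and 0.336 CPM in knockout mouse 1. Zbtb46 was lowest in knockout mouse 4, at 6.69 CPM, and highest in knockout mouse 3, at 10.1 CPM. Flt3, Xcr1, Clec9a and Ccr7 were each at 3.27 CPM or less in every mouse. The 7 matched neutrophil and granulocyte genes summed to 2.25 to 11.1 CPM in wild type and 2.38 to 14.6 CPM in knockout. Of these, S100a8 had 50 to 451 counts and Csf3r 22 to 143 counts per library, and S100a9 had 218 counts in knockout mouse 4 and 30 or fewer in the others. The 7 matched T and NK cell genes were all above 0, at summed levels of 5.84 to 12.9 and 7.82 to 23.5 CPM. Adipocyte genes were above 0 in 3 of 8 cases, at summed levels of 26286 to 35643 CPM in wild type and 28490 to 38264 CPM in knockout. Mesothelial genes were below 0 in 7 of 7 cases, at 228 to 1172 and 140 to 1046 CPM. The part of these cells in the levels of the set was not tested.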

How the data were processed

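Each mouse has a deposited table of raw read counts by gene symbol, used as the authors left it. Per the submitters' processing notes, the tools were STAR 2.4.0g1, FastQC 0.11.2, Cufflinks, featureCounts and edgeR, with build mm10; their roles and the strand setting are stated nowhere in the sources used here. Exon positions and lengths came from the authors' deposited merged annotation.

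Here, genes were kept with filterByExpr and scaled by TMM (factors 0.966 to 1.05). The genotypes were compared in edgeR 4.0.16 (R 4.3.3) with robust quasi-likelihood F tests and no covariate, adjusted by Benjamini-Hochberg over 14493 genes at 0.05. SEs are those the F statistic implies. Log2 CPM used a prior count of 2. Alternatives were median-ratio factors, total counts, no filter, a filter of 1 CPM in 4 libraries, DESeq2 1.42.0, limma voom 3.58.1, non-robust dispersion, a replicate block, each library left out, and the epithelial pair (wild-type mouse 3 and knockout mouse 2) left out. The procedure was checked on simulated counts. At 46444435 counts or more per library, spread between mice (common biological coefficient of variation 0.301) and not counting error sets the precision. No 2 libraries of a genotype agreed within sampling noise (chi-square per degree of freedom at least 65.9).

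Members and lists were chosen with earlier results of these data known. Named genes are the 10 members, up to 3 genes of each list with the smallest p (some left out for length), the 8 most alike and close paralogs. The epithelial, dendritic and granulocyte markers, Calcr and Atp6v0c were chosen after their values were seen. Emr1 stands for Adgre1, and Ly6g, Muc16 and Trac had no match. The targeted gene is not reported here.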

Additional observations from a re-analysis of the deposited data

Results flagged for a closer look

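In 22 groups of 4 libraries (the 10 genes and the macrophage index in each genotype), 2 mice lay far from the rest of their group, and chance flags about 1 in 20 groups, here 1.1. For Lipa, wild-type mouse 3 had a log2 CPM of 6.91 and the other wild-type mice 6.32 to 6.38. For Spp1, knockout mouse 3 had a log2 CPM of 0.45 and the other knockout mice 3.34 to 3.70.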

How the results depend on the processing

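No gene of the set passed in any of the 17 alternatives, and the count above 0 was 9 or 10 in all of them; the smallest adjusted p was 0.870. Over the whole table the count of called genes was 0 with total counts, no low-count filter, limma voom, the replicate block or without the epithelial pair, 0 to 0 over the libraries left out in turn, and 17 with DESeq2, 8 of them higher. At an equal index it was 1 with total counts. Trem2 turned to -0.28 in limma voom and -0.27 with the replicate block, and ranged from -0.0419 (without knockout mouse 4) to 0.79 over the libraries left out. At an equal index, where the count above 0 was 6 to 10 over the libraries left out and 7 with the replicate block, Cd9 turned to -0.0964 and Ctsk to -0.13 with that block. Over the libraries left out, values at an equal index were -1.09 to 0.42 for Trem2 (0.31 and 0.42 without knockout mice 2 and 3), -0.00446 (without knockout mouse 1) to 0.38 for Cd9, -0.12 to 0.35 for Lipa (lowest without wild-type mouse 4, and also below 0 without wild-type mouse 3 or knockout mouse 1), -0.00356 to 1.30 for Mmp12 and -0.000163 to 0.83 for Itgax (both lowest without wild-type mouse 4). The cause was not tested. Same-numbered mice deviated together with r of -0.32 to 0.12, and no wild-type mouse correlated best with its own number. No pairing by number was visible, though 4 mice per genotype are too few to exclude one. The macrophage index difference was 0.14 to 0.74 over the libraries left out, with p of at least 0.257 (two-sided exact permutation test). Levels of Spp1, at 29 counts or more, are the least deeply counted of the set.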
